A study of Mus musculus with 6 samples.

Results

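The 10 genes described here belong to the NRF2 pathway, a cell's main transcriptional answer to oxidants and electrophiles. They are Nfe2l2, which encodes the transcription factor NRF2, its repressor Keap1, and the target genes Nqo1, Gclc, Gclm, Txnrd1, Srxn1, Me1, Slc7a11 and Osgin1. They were taken by name from the 18193 genes measured in the series, all 10 were on the array, and 21 probe sets carried one of their symbols alone. Where a gene had several probe sets, the brightest on average was used and the others served as a check. The samples were retinal pigment epithelium (RPE), the cell layer behind the photoreceptors that recycles visual pigment and digests shed outer segments, from BALB/c mice, an albino strain. All mice spent 1 week in darkness. The dark-adapted group (3 arrays) received nothing further, and the light-damaged group (3 arrays) was placed under 6000 lux of white fluorescent light for 1.5 h and sampled 24 h later. The labels used here give no age, sex or pooling, and the p-values therefore cover only how these arrays scatter, a scatter that may be technical.

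As background, NRF2 is held low in resting cells because KEAP1 hands it to a CUL3 ubiquitin ligase. Oxidants and electrophiles modify cysteines of KEAP1, NRF2 then escapes degradation, pairs with a small MAF protein and binds antioxidant response elements in its target genes. Much of this control acts on the protein, so the mRNA of Nfe2l2 and Keap1 need not follow NRF2 activity. In the RPE the pathway is known for its part in handling the oxidants that arise from light and from the digestion of outer segments.

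The letters of the antioxidant response element in the genes that passed the test, and in Srxn1, whose window held the most matches, are shown because they are the sequence through which NRF2 is known to act. RefSeq promoter windows (GRCm38.p6, 250 bases before to 50 after a gene's start) were matched for 9 of the 10 genes, the exception being Gclc. Each stretch below has 30 bases, read 5′ to 3′ on the gene's strand, with the match to TGANNNNGC or its reverse complement GCNNNNTCA in capitals. That of Osgin1 lies at chr8:119437038-119437067 on the plus strand, that of Me1 at chr9:86695901-86695930 on the minus strand, and that of Srxn1 at chr2:152105469-152105498 on the plus strand.
Osgin1: aggggcccctGCTGACTCAcgcttatgaaa
Me1: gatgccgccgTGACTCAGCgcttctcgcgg
Srxn1: aaattcacccTGAGTCAGCggccgggcgcg
The matches begin 99, 6 and 45 bases before the start of Osgin1, Me1 and Srxn1. The match of Me1 also has the stricter letters TGACNNNGC. In all 3 the printed match overlaps TGANTCA, the letters that AP-1 factors bind. The window of Srxn1 held 4 matches to TGANNNNGC, and of these only the printed match overlaps TGANTCA. The overlap shown for Srxn1 thus rests on which match was printed. The window of Nqo1 held none of these letters in that arrangement, which describes this window only. Over both strands, TGANNNNGC was in 9 of the 12 windows of the 9 genes and in 41.3% of 32851 windows of the same length. TGACNNNGC, whose matches all lie within those of the first motif, was in 5 of the 12 and in 12.4% of all windows, and TGANTCA in 3 of the 12 and in 7.81%. A match of letters is a description and no evidence of a bound site.

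In light-damaged RPE 3 of the 10 genes passed the test, and they did not move together. Nqo1 and Me1 fell, to 0.546-fold and 0.654-fold of the dark-adapted level, and Osgin1 rose 1.48-fold. Nfe2l2, Keap1 and the glutathione and thioredoxin genes among the 10 had differences between -0.14 and 0.25 on the log2 scale and did not pass. The test was limma on log2 values of all genes with the replicate number as a block, since the labels number the arrays 1 to 3 in both groups, and a call is a Benjamini-Hochberg adjusted p under 0.05. Of all 18193 genes, 4.99% were called in this fit, 3.07% higher and 1.92% lower in light-damaged RPE. Without the block no member was called, and 1 member, Nqo1, had an unadjusted p under 0.05 in limma, where 5.94% of all genes did. That fit called 0.0495% of all genes. With the block, 5 of the 10 had an unadjusted p under 0.05, beside 19% of all genes. The median difference of the 10 was 0.11, beside 0 over all genes, and 3 of the 10 lay below 0, beside 50.1% of all genes.

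The arrays of replicate 1 stood apart from the other 4 in both groups. The first principal component, with 74.4% of the variance, placed them at -38.60 and -68.73 and the others between 18.76 and 34.02. The difference between 3′ and 5′ control probe sets of Gapdh which grows as RNA degrades or labelling stops short, was 2.45 and 2.48 in these arrays and 1.54 to 1.80 in the others. Results without replicate 1 are therefore given for the called genes named from the pathway. Markers of the labelled tissue were bright, with a mean log2 value of 12.86 to 13.23 over 10 RPE genes in dark-adapted arrays, and photoreceptor markers were too, at 12.23 to 12.91 over 9 genes.

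**Figure D1:**
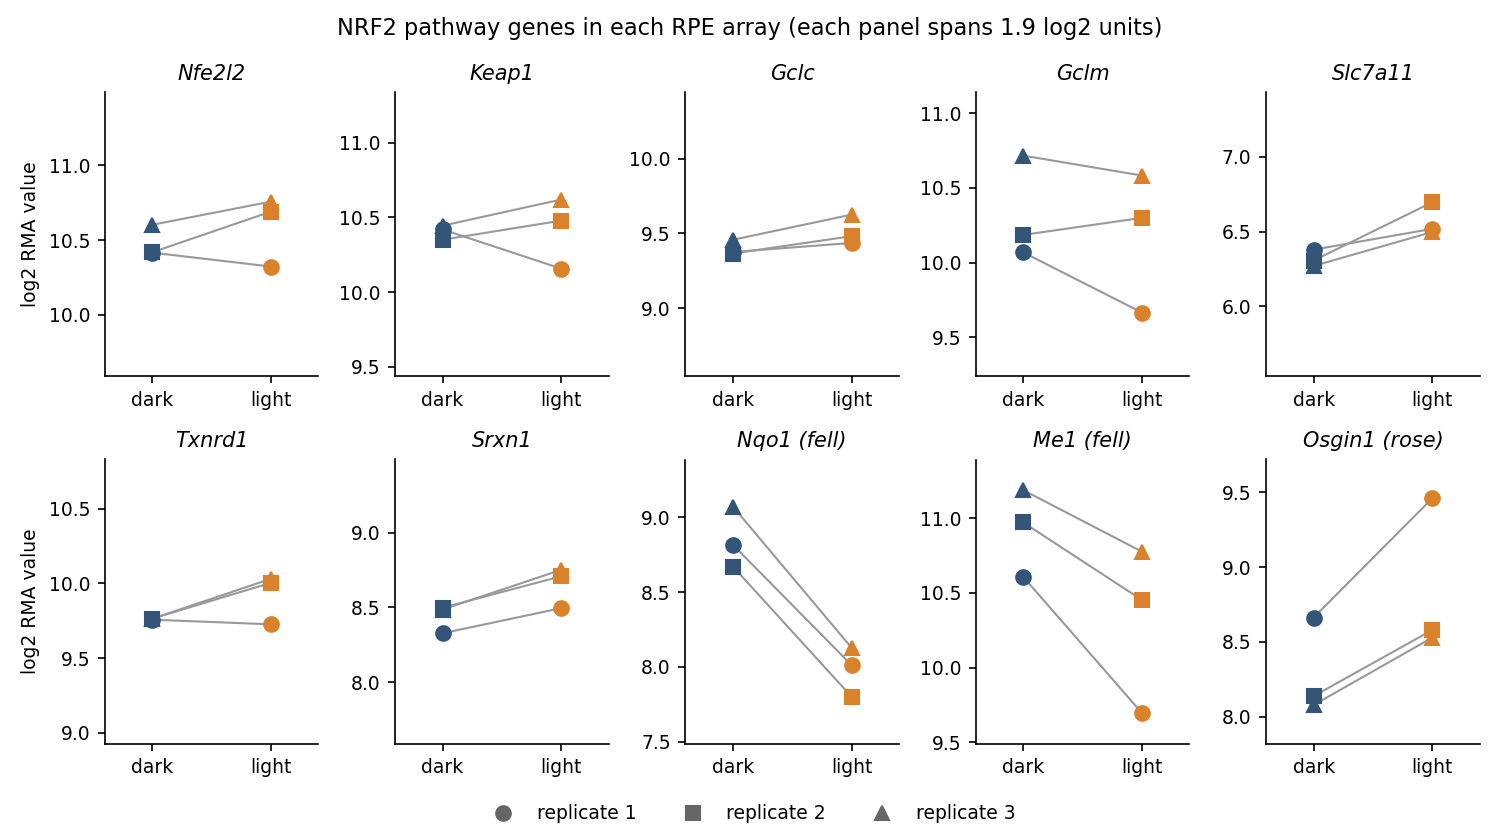
Log2 RMA values of the 10 genes in the 3 dark-adapted and 3 light-damaged arrays, with lines joining arrays of the same replicate number and every panel spanning the same range. Nqo1 and Me1 are lower and Osgin1 is higher in the light-damaged array of each pair, and in Osgin1 the replicate 1 array is the highest of each group.

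The transcription factor gene Nfe2l2 measured 10.42, 10.42 and 10.60 in dark-adapted replicates 1, 2 and 3 and 10.32, 10.69 and 10.76 in the light-damaged ones. The light-damaged array was lower in pair 1 and higher in pairs 2 and 3, and the groups overlapped. The difference was 0.11 ± 0.10 on the log2 scale (standard error, 3 pairs), with a 95% interval of -0.14 to 0.36 (limma adjusted p = 0.653). Without replicate 1 the difference was 0.21 and without replicate 2 it was 0.03, and neither passed. Its second probe set gave -0.02 ± 0.09. By Pearson's r over the 6 arrays, the genes whose pattern was most like that of Nfe2l2 were Noc3l, Cybc1 and Kctd20, with r of 0.996, 0.995 and 0.992. As many as 373 genes had an r above 0.9 with it over the same 6 arrays.

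Keap1, the repressor, measured 10.42, 10.35 and 10.44 in dark-adapted and 10.16, 10.48 and 10.62 in light-damaged replicates 1, 2 and 3. As with Nfe2l2, pair 1 went down and pairs 2 and 3 went up. The difference was 0.01 ± 0.11, with a 95% interval of -0.26 to 0.29 (limma adjusted p = 0.970), and its sign turned when the arrays were centred on their medians, without replicate 2 and without replicate 3. Without replicate 1 it was 0.15 and did not pass. The second probe set gave 0.07 ± 0.09.

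Gclc and Gclm encode the catalytic and the modifier subunit of glutamate-cysteine ligase, which makes the first step of glutathione synthesis. Gclc measured 9.38, 9.37 and 9.46 in dark-adapted and 9.44, 9.48 and 9.63 in light-damaged replicates, a difference of 0.12 ± 0.09 (limma adjusted p = 0.563) that was above 0 in 3 of 3 pairs while the groups overlapped. Gclm measured 10.07, 10.19 and 10.72 in dark-adapted and 9.67, 10.30 and 10.58 in light-damaged replicates. It was lower in pairs 1 and 3 and higher in pair 2, with a difference of -0.14 ± 0.12 (limma adjusted p = 0.615). Without replicate 1 this became -0.01 and without replicate 2 -0.27, and neither passed. The probe set used for Gclc is of the s_at kind, which can bind related transcripts. The other probe sets gave 0.21 ± 0.10 for Gclc and -0.25 ± 0.11 for Gclm. Each subunit's probe sets thus had the same sign, and neither subunit passed.

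Slc7a11, the cystine and glutamate exchanger that brings in cystine for glutathione, was dim, below the 0.25 quantile of all genes by mean value. It measured 6.38, 6.31 and 6.27 in dark-adapted and 6.52, 6.70 and 6.50 in light-damaged replicates. Each light-damaged array was above each dark-adapted one, as was so in 6.61% of all genes. The difference of 0.25 ± 0.09, with a 95% interval of 0.03 to 0.48, did not pass over all genes (limma adjusted p = 0.212), and RMA understates differences of dim genes. The second probe set gave 0.24 ± 0.09.

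Txnrd1, the cytosolic thioredoxin reductase, was nearly equal in the dark-adapted replicates at 9.76, 9.76 and 9.76, and measured 9.73, 10.003 and 10.03 in the light-damaged ones. Pairs 2 and 3 were higher and pair 1 was not, for a difference of 0.16 ± 0.10 (limma adjusted p = 0.474) that was 0.25 without replicate 1 and did not pass there either. Its other probe sets gave 0.11 ± 0.11 and -0.05 ± 0.08.

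Srxn1 encodes sulfiredoxin, which repairs overoxidised peroxiredoxins. It measured 8.33, 8.50 and 8.49 in dark-adapted and 8.49, 8.71 and 8.75 in light-damaged replicates, above its dark-adapted partner in 3 of 3 pairs. The difference was 0.21 ± 0.09 with a 95% interval of 0.01 to 0.42 (limma adjusted p = 0.243). Its probe set is of the s_at kind, which can bind related transcripts, and the other 3 probe sets gave 0.48 ± 0.10, 0.13 ± 0.10 and 0.25 ± 0.10. The first of these went from 8.32, 7.91 and 8.05 to 8.98, 8.24 and 8.51, and its adjusted p was 0.0509 when limma was run on every probe set with a single symbol. All 4 Srxn1 probe sets thus had a difference above 0, and none passed.

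Nqo1, the quinone reductase that spends NADPH or NADH to reduce quinones without forming radicals, measured 8.82, 8.67 and 9.07 in dark-adapted and 8.01, 7.80 and 8.13 in light-damaged replicates 1, 2 and 3. All light-damaged arrays lay below all dark-adapted ones, as in 3.72% of all genes, and the 3 pairs gave -0.80, -0.87 and -0.94. Nqo1 fell by 0.87 on the log2 scale, from 8.85 ± 0.20 (SD, n = 3) to 7.98 ± 0.17, with a standard error of 0.09 and a 95% interval of -1.08 to -0.66 (limma adjusted p = 0.00565). Without replicate 1 the difference was -0.91 (limma adjusted p = 0.00338). The call also held without replicate 2 (0.00947) and, close to the bound, without replicate 3 (0.0473). Without the block the adjusted p was 0.176. No second probe set was on hand as a check.

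Me1, the cytosolic malic enzyme that makes NADPH from malate, measured 10.61, 10.97 and 11.19 in dark-adapted and 9.70, 10.45 and 10.78 in light-damaged replicates 1, 2 and 3. The groups overlapped, since light-damaged replicate 3 lay above dark-adapted replicate 1, while the pairs gave -0.91, -0.52 and -0.41. Me1 fell by 0.61 on the log2 scale with a standard error of 0.12 and a 95% interval of -0.90 to -0.33 (limma adjusted p = 0.0395). The second probe set, of the a_at kind, gave -0.43 ± 0.09 and was below 0 in 3 of 3 pairs. Without replicate 1 the difference of Me1 was -0.47 with an adjusted p of 0.0352, and the call was lost without replicate 2 (0.056), without replicate 3 (0.0957), with the block as a random effect (0.062) and without the block (1).

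Osgin1, a growth inhibitor induced by oxidative stress, measured 8.66, 8.14 and 8.08 in dark-adapted and 9.46, 8.58 and 8.53 in light-damaged replicates 1, 2 and 3. Replicate 1 was the highest array of each group, light-damaged replicates 2 and 3 lay below dark-adapted replicate 1, and the pairs gave 0.80, 0.44 and 0.45. The rise was 0.56 ± 0.11 on the log2 scale with a 95% interval of 0.31 to 0.82 (limma adjusted p = 0.0365), and it had 1 probe set. Without replicate 1 the difference was 0.45 (adjusted p = 0.0369). The call was lost without replicate 2 (adjusted p = 0.0512), without replicate 3 (0.131), after another quantile normalization (0.0584), with the block as a random effect (0.0654) and without the block (1).

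**Figure D2:**
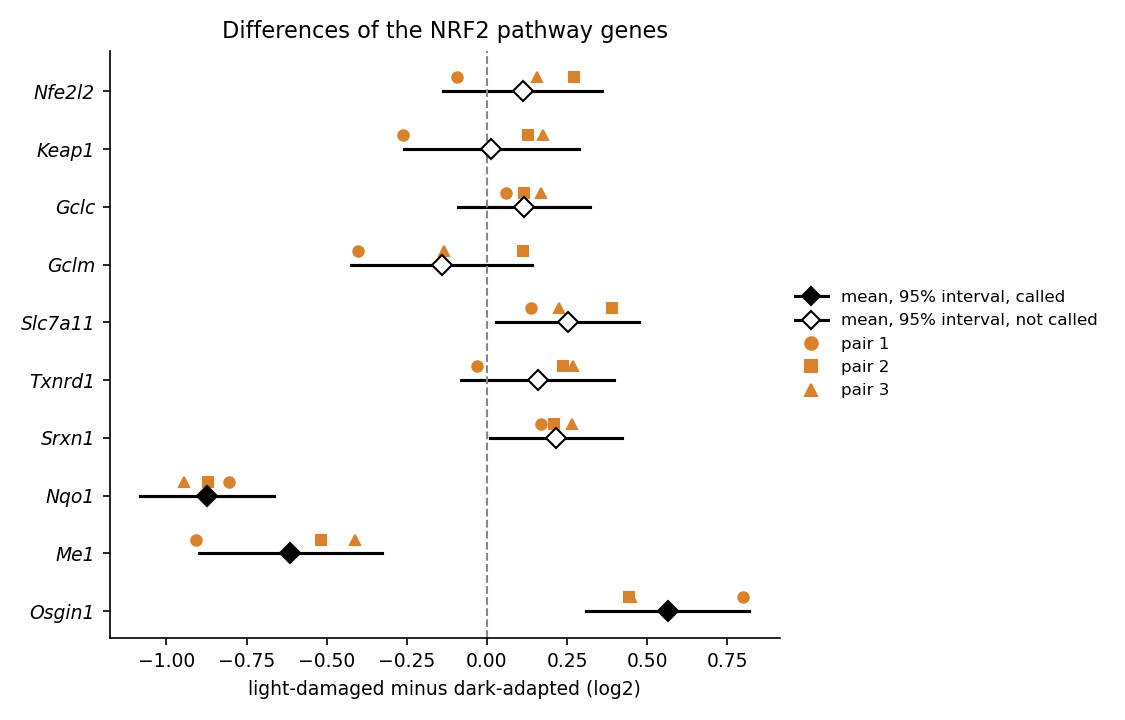
Light-damaged minus dark-adapted log2 values of the 10 genes, with the fitted mean and its 95% interval as diamonds and lines and the 3 pairs as coloured points. Only the intervals of Nqo1, Me1, Osgin1, Slc7a11 and Srxn1 leave out 0, and of these the first 3 passed after adjustment over all genes.

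Across the 10 genes, 6 had the same sign in 3 of 3 pairs, beside 40.5% of all genes, and in 2, Nqo1 and Slc7a11, the groups did not overlap, beside 10.3%. The median of the 10 differences was -0.06 in pair 1 and 0.17 in each of pairs 2 and 3. Pair 1 was the lowest of the 3 pairs in Nfe2l2, Keap1, Gclc, Gclm, Txnrd1, Srxn1, Slc7a11 and Me1. For the 8 genes with further probe sets, 11 such probe sets were measured. Of these, 2 had the opposite sign to the probe set used, 1 each of Nfe2l2 and Txnrd1. When all 34945 probe sets with a single symbol were tested, 4 of the 11 had an unadjusted p under 0.05, beside 17.3% of all probe sets, and none was called, beside 3.77%. With so few probe sets a count of none is close to that background.

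**Figure D3:**
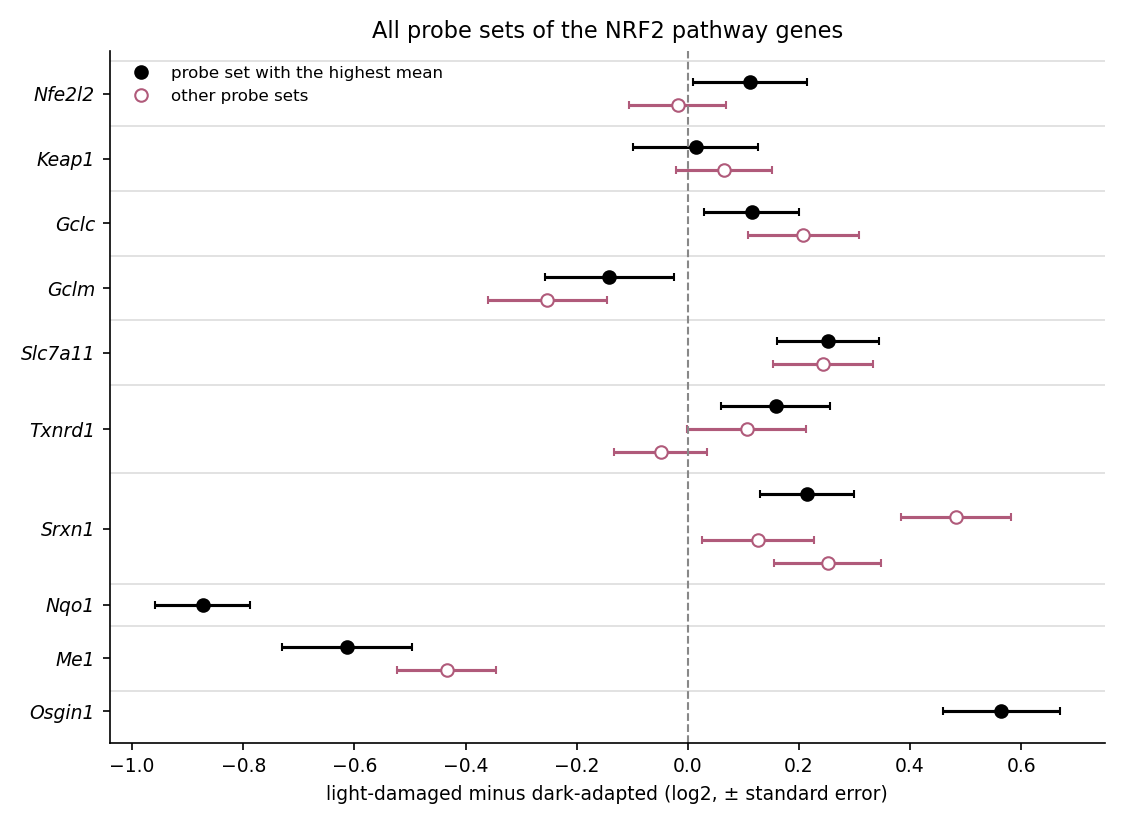
Light-damaged minus dark-adapted log2 difference with its standard error for all 21 probe sets of the 10 genes, with the probe set used for each gene filled. The 2 probe sets of Me1 are both below 0 and the 4 of Srxn1 all above 0, while Nqo1 and Osgin1 have 1 each.

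Levels of cell type markers moved in the same arrays. The mean of the 10 RPE markers was 12.86 to 13.23 in dark-adapted and 12.23 to 12.82 in light-damaged arrays and was lower by 0.63, 0.29 and 0.42 in pairs 1, 2 and 3. Of these markers 2 fell, the retinol esterifying enzyme gene Lrat and the lactate transporter gene Slc16a8, and all 10 had a difference below 0. In pairs 1, 2 and 3 the differences of the 10 markers ranged from -0.05 to -1.06, from 0.01 to -0.46 and from -0.05 to -0.73. In the same pairs Nqo1 had -0.80, -0.87 and -0.94, and Me1 had -0.91, -0.52 and -0.41. The 9 photoreceptor markers had a mean of 12.23 to 12.91 in dark-adapted and 11.65 to 12.57 in light-damaged arrays, and 4 of them fell. The 11 macrophage and microglia markers had a mean of 9.63 to 9.85 in dark-adapted and 10.53 to 10.65 in light-damaged arrays, and 10 of them rose, all but Csf1r. Of 8 neutrophil markers, 2 rose, S100a8 and S100a9, while the granule genes Mpo, Elane, Ltf, Camp and Ngp and the receptor gene Cxcr2 did not pass, and the list's mean was 7.46 to 7.86 in dark-adapted and 7.80 to 8.40 in light-damaged arrays. The 6 fibroblast markers had a mean of 10.27 to 10.41 in dark-adapted and 10.45 to 10.97 in light-damaged arrays, with differences of 0.12, 0.56 and 0.60 in pairs 1, 2 and 3, and 2 of them rose, Col3a1 and Pdgfra. Of 7 endothelial markers, Vwf rose, and the list's mean was 7.79 to 7.98 in dark-adapted and 7.89 to 8.17 in light-damaged arrays. None of 6 Müller glia markers and none of 3 red blood cell genes passed. These marker calls come from the fit with the block, which called 3.07% of all genes higher and 1.92% lower. Without the block no marker of any list was called in limma, where 0.0495% of all genes were. The part of the marker shifts in the results for Nqo1, Me1 and Osgin1 was not tested. In bulk samples, fewer cells of a type and less RNA per cell cannot be told apart.

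**Figure D4:**
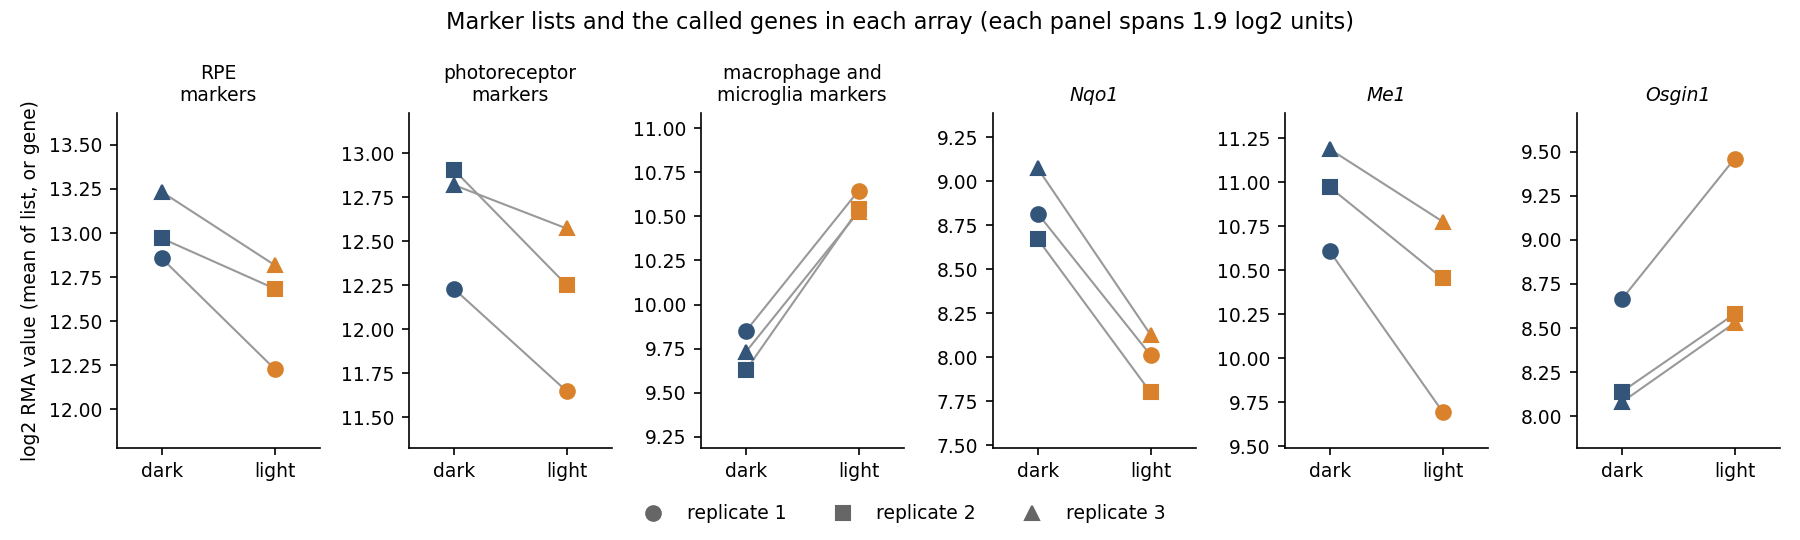
Mean log2 values of the RPE, photoreceptor and macrophage and microglia marker lists and log2 values of Nqo1, Me1 and Osgin1 in each array, with lines joining arrays of the same replicate number. RPE and photoreceptor lists are lower and the macrophage and microglia list is higher in the light-damaged array of each pair.

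By the same measure of likeness over 6 arrays, the genes closest to Nqo1 were Stox1, Kcnj13 and Rab37, with r of 0.997, 0.996 and 0.988. Their differences were -0.98 ± 0.09, -0.56 ± 0.09 and -1.13 ± 0.12. Being chosen for likeness to Nqo1 on these arrays, they had to be lower in light-damaged RPE, and no test is given. Kcnj13 encodes an inward rectifier potassium channel of the RPE, and it measured 13.36, 13.22 and 13.56 in dark-adapted and 12.82, 12.68 and 12.94 in light-damaged replicates. The genes closest to Osgin1 were the MHC class II genes H2-Ab1 and H2-DMb2, with r of 0.999 and 0.997, and 4833422C13Rik with 0.997. Their differences, whose sign the choice likewise favours, were 0.41 ± 0.10 for H2-Ab1, 0.39 ± 0.10 for H2-DMb2 and 0.05 ± 0.09 for 4833422C13Rik. H2-Ab1, like Osgin1, was highest in replicate 1 of each group, at 10.85 and 11.43, beside 10.43 and 10.39 and beside 10.77 and 10.70 in the others. With Osgin1, 1139 genes had an r above 0.9, and with Nqo1 176 did.

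Further genes of the pathway, in 6 lists of 84 names of which 77 had a probe set with that symbol alone, were mostly not called. Ggt1, Prdx1, Prdx5, Prdx6, G6pdx, Ugt1a6a and Ftl1 had no such probe set and were not tested. Of the 77, 5 rose and none fell, beside the 3.07% and 1.92% of all genes given above. An unadjusted p under 0.05 was found in 23 of the 77, beside 19% of all genes, and the median difference was 0.05. Without the block none of the 77 was called in limma, and 9 had an unadjusted p under 0.05, beside 5.94% of all genes. The 5 were Nfe2l3, Akr1b8, Gsta3, Hmox1 and Pgd.

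Of 20 regulators and partners of NRF2, Nfe2l3 alone rose, with a list median of 0.04. Nfe2l3 encodes NRF3, a factor of the same family as NRF2. It measured 7.71, 7.53 and 7.72 in dark-adapted and 8.82, 8.86 and 8.73 in light-damaged replicates, with groups far apart. The rise was 1.15 ± 0.10 or 2.22-fold (limma adjusted p = 0.00346), and without the block the adjusted p was 0.0566. The difference was 1.17 without replicate 1 (adjusted p = 0.00262). Its 2 other probe sets gave 0.10 ± 0.09 and 0.21 ± 0.09, and the mean over its probe sets was 0.49. Next by p-value came the small MAF genes Maff, at 0.46 ± 0.10 (adjusted p = 0.0550) with no overlap between groups, and Mafk, at 0.29 ± 0.09 (adjusted p = 0.150). The ligase scaffold Cul3 and the repressor Bach1, which competes with NRF2 for its sites, had differences of -0.35 ± 0.11 and 0.10 ± 0.09 and did not pass.

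Among 18 detoxifying enzymes and exporters 2 genes rose, no gene fell and the median difference was 0.02. Akr1b8, an aldo-keto reductase that acts on aldehydes, measured 8.03, 7.93 and 7.92 in dark-adapted and 9.16, 9.04 and 9.16 in light-damaged replicates. Its rise of 1.16 ± 0.09 or 2.24-fold (limma adjusted p = 0.00225) had the smallest p of the 77, and without the block the adjusted p was 0.0516. The difference was 1.18 without replicate 1 (adjusted p = 0.00173). Gsta3, a glutathione transferase, measured 8.30, 8.57 and 9.10 in dark-adapted and 8.89, 10.14 and 10.12 in light-damaged replicates, so that light-damaged replicate 1 lay below dark-adapted replicate 3. Its difference was 1.06 ± 0.18 (limma adjusted p = 0.0271), and its second probe set gave 0.94 ± 0.09. Leaving out replicate 1 gave 1.30 for Gsta3 (adjusted p = 0.00416). The call of Gsta3 was lost without replicate 3 (adjusted p = 0.0894) and without the block (0.745). The exporter gene Abcc4 was at -0.68 ± 0.14 (adjusted p = 0.0506) with no overlap between groups, and passed without replicate 2 at -0.89 (0.00824). Abcc4 did not pass without replicate 1 (0.0799), without replicate 3 (0.23) or without the block (0.301). Gsta2 was at -0.39 ± 0.10 (adjusted p = 0.0914). The related quinone reductase gene Nqo2 had a difference of -0.02 ± 0.09 and did not pass.

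Of 9 genes of heme and iron handling, Hmox1 alone rose, with a list median of -0.03. Hmox1 encodes the inducible heme oxygenase, which breaks heme down. It measured 7.99, 7.67 and 7.39 in dark-adapted and 8.57, 8.92 and 8.55 in light-damaged replicates, all of them above the dark-adapted ones. The difference was 1.00 ± 0.14 (limma adjusted p = 0.0163). It was 1.21 without replicate 1 (adjusted p = 0.00158), and the call was lost without replicate 3 (0.0807) and without the block (0.209). The biliverdin reductase gene Blvra was at 0.43 ± 0.10 (adjusted p = 0.0584) and the iron exporter gene Slc40a1 at -0.32 ± 0.09 (adjusted p = 0.112).

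Of 10 genes of NADPH supply, Pgd alone rose, with a list median of -0.01. Pgd, 6-phosphogluconate dehydrogenase of the pentose phosphate pathway, measured 12.09, 11.67 and 11.58 in dark-adapted and 12.56, 12.16 and 12.16 in light-damaged replicates. The rise was 0.51 ± 0.09 or 1.43-fold (limma adjusted p = 0.0269). Its probe set is of the x_at kind, which can bind related transcripts, and the other 3 gave 0.43 ± 0.08, 0.51 ± 0.08 and 0.41 ± 0.09. Leaving out replicate 1 gave 0.53 for Pgd (adjusted p = 0.0220). The call of Pgd was lost without replicate 2 (adjusted p = 0.0714), without replicate 3 (0.188) and without the block (0.755). The mitochondrial malic enzyme gene Me3 was at -0.43 ± 0.10 (adjusted p = 0.0650) with all light-damaged arrays lower, and passed without replicate 1 at -0.50 (0.0382). Me3 did not pass without replicate 2 (0.133) or without replicate 3 (0.374). Pgls, the lactonase of the pentose phosphate pathway, was at 0.23 ± 0.09 (adjusted p = 0.217).

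No gene of glutathione synthesis and use was called among 12, where the list median was 0.12. With the block limma gave 3 of them an unadjusted p under 0.05, beside 19% of all genes. Without it none of them had such a p, beside 5.94% of all genes. The peroxidase gene Gpx1 was at 0.45 ± 0.10 (adjusted p = 0.0554), and at 0.53 without replicate 1, where it passed (0.0240). Gpx1 did not pass without replicate 2 (0.203) or without replicate 3 (0.268). The glutathione-degrading enzyme gene Chac2 was at -0.39 ± 0.11 (adjusted p = 0.124). Among 8 thioredoxin and peroxiredoxin genes none was called either, with a list median of 0.04. Only Txn1 had an unadjusted p under 0.05 in limma with the block and none did without it, beside the same shares of all genes. Thioredoxin itself, Txn1, was at 0.36 ± 0.12 (adjusted p = 0.181), and at 0.52 without replicate 1, where it passed (0.0220). Txn1 did not pass without replicate 2 (0.442) or without replicate 3 (0.61). The mitochondrial form, Txn2, was at -0.14 ± 0.09 (adjusted p = 0.480).

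**Figure D5:**
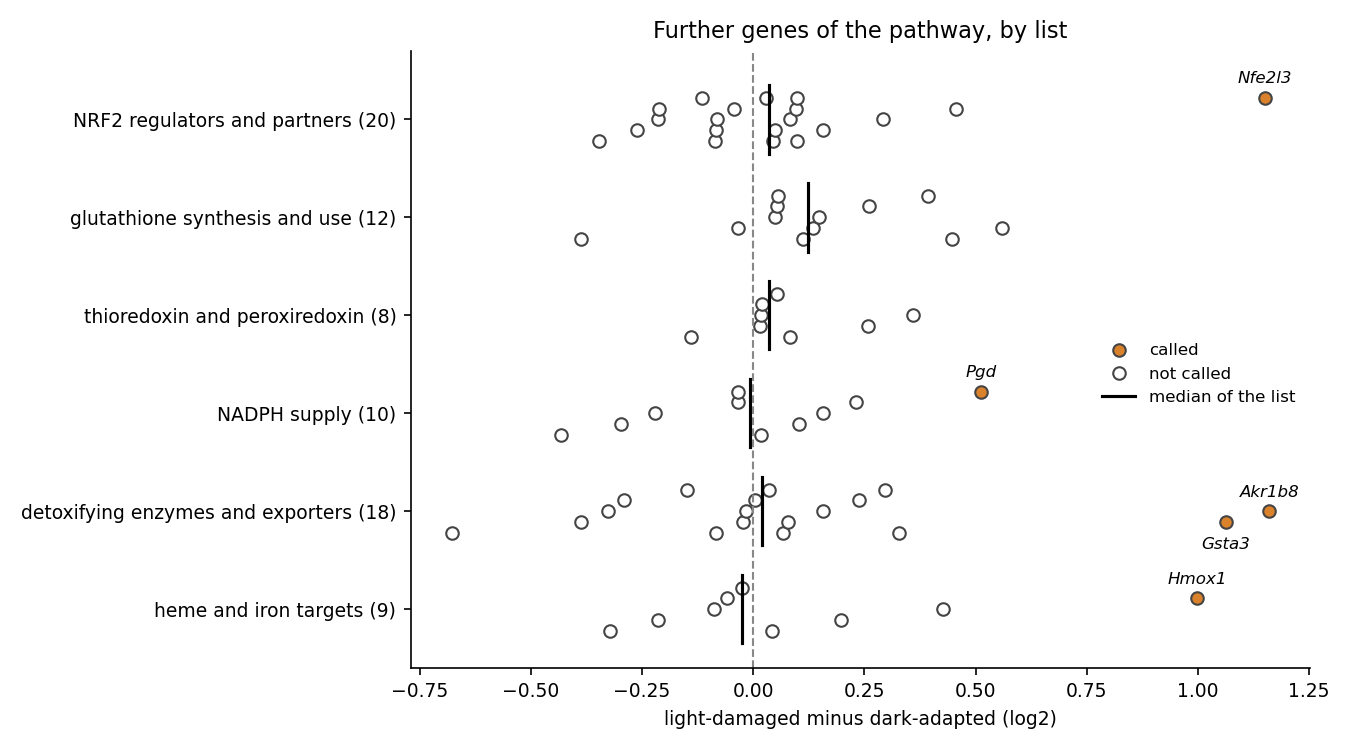
Light-damaged minus dark-adapted log2 differences of the 77 further genes in 6 lists, with called genes filled and named and the median of each list as a vertical bar. The list medians lie between -0.03 and 0.12, and the 5 called genes lie between 0.51 and 1.16.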

How the data were processed

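For 6 Affymetrix arrays the authors deposited log2 values of 45101 probe sets, 64 of them controls. Per the submitters' processing notes they used RMA, in a version not given in the sources used here. The log2 unit was read from the values (3.72 to 14.82). RMA compresses differences near background. The platform annotation gave 34945 probe sets exactly 1 symbol. The probe set with the highest mean over all arrays stood for each of 18193 genes.

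Light-damaged minus dark-adapted differences came from limma 3.58.1 under R 4.3.3 (lmFit, eBayes, two-sided, Benjamini-Hochberg over all genes), with the replicate number as a block and 2 residual degrees of freedom. The labels do not say what a number marks. After subtracting group means, arrays with equal numbers had correlations of 0.89, 0.62 and 0.86 over genes, all above the bound of 0.1, and the numbers were treated as pairs. Unequal numbers 2 and 3 correlated as well, dark-adapted 2 with light-damaged 3 at 0.65 and 3 with 2 at 0.61, so only replicate 1 is set apart by this check, and replicate 3 minus replicate 2 correlated at 0.33 between groups. The script was tested on simulated data with 100 genes changed by 1 and 100 by 2 on the log2 scale. It called 62% and 91% of them, with 3 false calls among 156. The members' differences, from -0.87 to 0.56, were smaller than these changes.

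Members, lists and tests were chosen with earlier results of these data known. Named are all members, the called genes of each list and the next 2 by p-value, and the 3 genes most like Nfe2l2 and like the members with the largest rise and fall. Lrat, Slc16a8, Csf1r, the neutrophil genes, Cul3, Bach1 and Nqo2 were picked for mention with their values known. Motifs were chosen after the windows were seen. No genome build applies to the arrays' values.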

Additional observations from a re-analysis of the deposited data

How the results depend on the processing

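The counts of called genes and the differences of the 10 members and of 17 further genes named with the lists were recomputed under 13 alternatives, or 12 for Slc7a11. Marker calls were recomputed only without the block, where none remained. Likeness, list medians and motif counts were not recomputed. Without the replicate block the counts of called genes fell to 9 higher and 0 lower over all genes, to 0 and 0 among the 10 members and to 0 higher among the 77 further genes, with 1080 of all genes, 1 member and 9 further genes at an unadjusted p under 0.05 in limma. With the replicate number as a random block (consensus correlation 0.743) 0 members were called higher and 1 lower, and 2 further genes were called lower. Another quantile normalization left 0 members higher and gave 1 further gene lower, and leaving out genes below the 0.25 quantile of mean value, which removes Slc7a11, also gave 1 lower. Mean values over a gene's probe sets gave 8 further genes higher and 2 lower. Array weights gave 1099 genes higher and 776 lower, and 10 further genes higher and 6 lower. Leaving out replicates 1, 2 or 3 in turn, both arrays together, gave 160 to 827 genes higher and 68 to 418 lower over all genes, 0 to 1 members higher and 1 to 2 lower, and 2 to 8 further genes higher and 0 to 2 lower, with 1 residual degree of freedom. The cause of these shifts was not tested. Nqo1 kept its call in 12 of 13 alternatives, Me1 in 9 and Osgin1 in 8, and their differences ran from -0.91 to -0.83, -0.71 to -0.47 and 0.45 to 0.62. None of the 7 other members gained a call in any alternative, 9 of the 12 uncalled further genes did in at least 1, and Keap1 changed sign in 3. The number of arrays limits the precision, and no detection calls were used.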
